A study of Mus musculus with 56 samples.

Results

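The genes described here are the mitochondrial ribosomal proteins of the mouse, taken as every symbol that starts with Mrpl or Mrps followed by a digit, without names ending in -ps. This rule gave 77 genes of the 30649 symbols in the union of the study's tables. The bulk count table and the FPKM tables each list 76 of them, of 23420 and 23356 symbols, and the single-cell matrices list all 77 of 27933 symbols. Mrpl57 is the gene listed only in the single-cell matrices, because the bulk tables carry the same gene under its older symbol Mrp63.

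Mitochondrial ribosomes translate the few proteins encoded by mitochondrial DNA, all of them subunits of the oxidative phosphorylation complexes. Their RNAs come from the mitochondrial genome, but every protein subunit is encoded in the nucleus, made by cytosolic ribosomes and imported. Many subunits descend from bacterial ribosomal proteins and others were added during the evolution of mitochondria, and some of the latter line the exit tunnel or take the place of lost ribosomal RNA. Loss of single subunits is known to impair respiration. Microglia are the resident macrophages of the brain.

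By their known roles, 28 of the 77 are large-subunit proteins with a bacterial homologue and 22 are large-subunit proteins without one. A further 16 are small-subunit proteins with a bacterial homologue and 10 are small-subunit proteins without one. The symbols do not always follow the subunit, since Mrps18a and Mrps30 sit in the large subunit. Mrps36 is known as a component of the 2-oxoglutarate dehydrogenase complex and not as a ribosomal protein, and it is kept because the rule is by symbol. The genes lie on 17 chromosomes, with 10 on chromosome 11, 8 on chromosome 17 and 7 on chromosome 6. In the GENCODE M21 annotation their exonic length has a median of 2255 bases, with a range of 607 to 8631. Exons of 23 of them overlap an exon of another coding gene, for example Mrps6 with Slc5a3 on the same strand, Mrps24 with Urgcp on the same strand, Mrps30 with B430218F22Rik on the opposite strand and Mrpl43 with Twnk on the opposite strand, so that reads of such pairs may be shared in counting.

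The study asked how the cytokine IL33 and its receptor ST2 act on microglia of the developing cortex, and what sets apart microglia that are phagocytic or metabolically active. Single-cell groups of 2 libraries each were made by droplet 3′-end sequencing of CD45int CD11bint cells from the cortex of B6 mice: wild type at postnatal day 9 (P9 WT) and day 28 (P28 WT), and ST2 Het and ST2 KO at day 9, where ST2 is the product of Il1rl1. The full-length bulk libraries hold 8 Tau-GFP Plus and 8 Tau-GFP Neg samples of microglia, sorted from the cortex of B6/129 carriers of the Mapt tm1(EGFP)Klt allele at postnatal day 10 by the sample labels and day 9 by the series text. In these mice the tau gene, active in neurons, drives the fluorescent protein, and positive microglia were taken as pro-phagocytic. They also hold 7 Medium and 7 IL33 libraries of wild-type B6 primary microglia from mice of postnatal day 5 to 8, selected on CD11b beads and cultured, the latter given 200 ng/ml IL33 for 3 h. The labels describe a pretreatment with the histone demethylase inhibitor GSK-J4 in these assays without saying which cultures received it. A separate set of 18 libraries holds 10 TMRM high and 8 TMRM low samples of microglia from P9 cortex (strain given as B6/C57), where TMRM is a dye that mitochondria take up in proportion to their membrane potential.

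The labels do not say that the replicates of a group came from separate animals, so each p-value measures the spread between these libraries. The bulk libraries held 7709047 to 11826389 expected counts. The single-cell text states 9391 cells for P9 and P28 WT, where 11424 barcodes were deposited and 11276 passed the filters used here. Of 15507 barcodes in all, 15335 passed and 14387 fell in the 14 of 19 clusters called microglia-like, and any pair of libraries shared at most 14 barcodes. All 12 microglial markers were detected in every bulk group, and their sum was lower in culture (10140 to 11823 CPM) than in the sorted Tau-GFP Neg cells (61195 to 76116 CPM). Il1rl1, the gene targeted in the ST2 mice, stood at 5.43 and 6.53 UMI CPM (UMIs scaled to equal library size) in the 2 ST2 Het libraries and at 7.37 and 6.17 in the 2 ST2 KO libraries, from 28 to 46 UMIs each. Tags from the 3′ end may lie outside the deleted part, so these values do not check the genotype labels.

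Promoter sequence was matched for 68 of the 77 genes in RefSeq windows of GRCm38.p6 reaching from 250 bases before to 50 bases after the start. Short motifs were searched on both strands. CCGGAAG, the core bound by ETS factors such as GABP, occurred in 24 of the 68 windows (35.29%) and in 9.12% of all 27025 gene windows. AAGATGG, a core of the YY1 site, occurred in 13 (19.12%, against 6.48% of all), and GCATGCG, a core of the site of nuclear respiratory factor 1 (NRF1), in 8 (11.76%, against 3.64%). The E-box CACGTG was in 7.35% of the genes' windows and 7.24% of all, CCAAT in 39.71% and 37.92%, and TATAAA in 5.88% and 14.16%. Of the 68, 36 had at least 1 ETS, NRF1 or YY1 core. These are matches of letters and say nothing of binding. The median share of G and C was 58.2% in the genes' windows and 52.7% in all windows, and its part in these counts was not tested. A stretch of 150 bases, from 120 before to 30 after the start, is shown for 4 genes that recur in the comparisons, all of which lie on the plus strand. Mrpl12 is at chr11:120484517-120484666, Mrpl28 at chr17:26123383-26123532, Mrpl33 at chr5:31613831-31613980 and Mrpl52 at chr14:54426789-54426938. Capitals mark matches of the motifs above. Mrpl12 has none in this stretch, Mrpl28 has CCAAT on both strands in overlap (CCAATTGG), Mrpl33 has CCAAT, the NRF1 core read on the other strand and the ETS core, and Mrpl52 has the YY1 core and 2 ETS cores read on the other strand.

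Mrpl12: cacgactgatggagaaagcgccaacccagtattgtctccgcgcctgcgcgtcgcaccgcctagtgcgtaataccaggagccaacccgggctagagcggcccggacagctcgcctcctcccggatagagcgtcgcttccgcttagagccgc
Mrpl28: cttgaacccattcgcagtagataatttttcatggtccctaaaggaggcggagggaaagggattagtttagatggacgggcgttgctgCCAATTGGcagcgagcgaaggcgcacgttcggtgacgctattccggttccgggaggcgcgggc
Mrpl33: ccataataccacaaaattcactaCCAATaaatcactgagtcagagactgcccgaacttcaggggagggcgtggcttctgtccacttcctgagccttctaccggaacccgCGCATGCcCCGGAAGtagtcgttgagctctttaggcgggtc
Mrpl52: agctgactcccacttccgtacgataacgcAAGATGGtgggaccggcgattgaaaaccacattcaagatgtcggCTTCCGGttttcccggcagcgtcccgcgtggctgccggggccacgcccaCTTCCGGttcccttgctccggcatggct

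Genes with and without the ETS core are set side by side as a description, and the differences between them were not tested. The median log2 fold change was 0.26 for 23 genes with it and 0.29 for 44 without in TMRM high against low cells, and -0.23 for 24 and -0.21 for 44 at P28 against P9. It was 0.29 and 0.18 in Tau-GFP Plus against Neg cells, where 11 of 23 and 13 of 44 rose, and 0.85 and 0.61 in cultured against sorted cells, where 22 of 23 and 32 of 44 were higher.

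Levels of different genes can be compared per length, in FPKM (fragments scaled to transcript length and library size), or per molecule, in UMI CPM. Over the 18 TMRM libraries the highest mean levels were those of Mrps21, a small-subunit protein (111 FPKM), Mrpl23, which lies by the exit tunnel (99.5), Mrpl52 (94.1), Mrpl42 (75.9) and Mrpl20 (70.6). The lowest were Mrps25 (3.31), Mrpl1 (3.38) and Mrpl19 (4.39), a 33.5-fold range. In P9 WT microglia-like cells Mrpl52 led with a mean of 213 UMI CPM, followed by Mrpl23 (203), Mrps33 (180) and Mrps21 (178). Neighbours in these orders differed by less than the spread between libraries, as for Mrpl23 (83.0 to 125 FPKM in TMRM high cells) and Mrpl52 (84.4 to 125). Across 76 genes the 2 scales had a Spearman correlation of 0.66 and a Pearson correlation of 0.53 on log values, which is a description over genes. Mrpl53 stood apart, with a mean of 20.2 FPKM in TMRM low cells and 0.72 UMI CPM in P9 WT cells, and its exons overlap Gm42688 on the same strand.

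**Figure D1:**
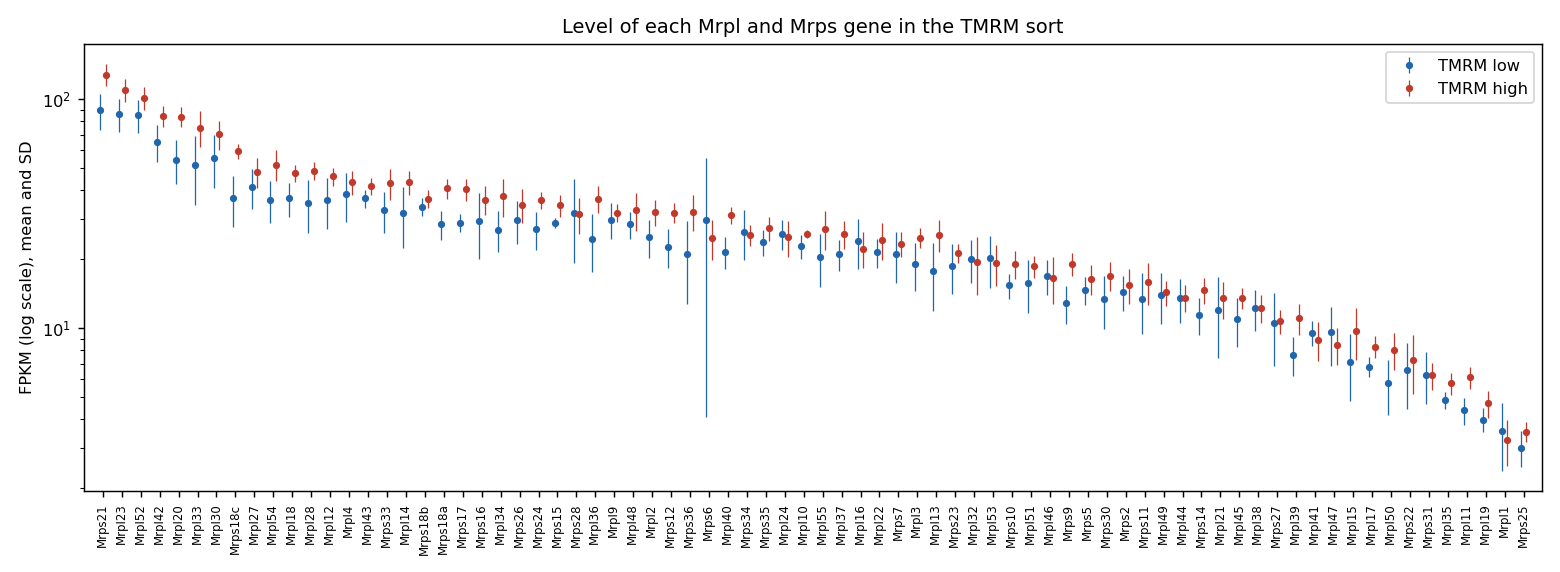
FPKM (log scale) of each of 76 genes in the TMRM sort, with points for the group mean and lines for 1 SD of the TMRM low (blue, n = 8) and TMRM high (red, n = 10) libraries, ordered by mean level from Mrps21 to Mrps25. The red point lies above the blue one for most genes, and the long blue line is that of Mrps6, whose coefficient of variation in TMRM low libraries was 86.2%.

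The spread within groups was small for most genes. The median coefficient of variation over genes was 20.8% in TMRM low, 13.4% in TMRM high, 13.8% in Tau-GFP Neg, 12.4% in Tau-GFP Plus, 9.7% in Medium and 8.4% in IL33 libraries. Mrps30 varied most in all 4 groups of the count table, from 36.4% in IL33 to 82.7% in Tau-GFP Neg libraries. Mrps6 varied most in TMRM low cells (86.2%), where library 2 stood at 87.0 FPKM beside a group median of 19.4.

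Microglia with high TMRM staining had more mitochondrial ribosomal protein RNA than those with low staining. Of 76 genes tested, 39 rose in TMRM high cells and none fell (limma on log2(FPKM + 1), Benjamini-Hochberg adjusted p under 0.05 over 10714 genes). Among all genes tested 20.4% rose and 9.84% fell. The median log2 fold change of the 76 was 0.26, beside 0.06 over all genes tested, and 67 of the 76 were above 0. Together the 76 took 0.400% to 0.471% of the FPKM in TMRM low libraries and 0.457% to 0.511% in TMRM high libraries, with overlap. Fold changes here are on the log2(FPKM + 1) scale, which understates those of low genes. In samples of many cells, a change in the RNA of each cell and a change in the kinds of cells cannot be told apart.

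Mrps18c, a small-subunit protein, ran from 22.5 to 53.9 FPKM in TMRM low libraries (median 37.0) and from 50.1 to 66.1 in TMRM high libraries (median 60.3). The groups overlapped between 50.1 and 53.9, and every TMRM high library was above the TMRM low median. The log2 difference was 0.70 ± 0.11 (SE; n = 10 against 8; limma adjusted p = 9.67e-05).

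Mrpl20, which binds ribosomal RNA early in assembly of the large subunit, ran from 35.4 to 69.3 FPKM (median 55.2) in TMRM low and from 71.2 to 95.3 (median 84.4) in TMRM high libraries. No TMRM high library was as low as any TMRM low library, and the log2 difference was 0.63 ± 0.11 (limma adjusted p = 0.000217). The same held for Mrpl40, at 16.56 to 25.97 against 26.32 to 35.998 FPKM (0.53 ± 0.09), and for Mrps17, at 24.03 to 32.1 against 35.7 to 50.1 FPKM (0.47 ± 0.07). These 3 were the only ones of the 76 whose groups did not overlap, all of them higher in TMRM high cells, where 5.17% of all genes tested were higher and 1.68% lower without overlap.

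Mrps36, the 2-oxoglutarate dehydrogenase protein, rose by 0.68 ± 0.21 (limma adjusted p = 0.0189), from a median of 19.02 FPKM (6.42 to 34.6) to 32.6 (24.7 to 42.7). Of the large-subunit proteins with a bacterial homologue, Mrpl36 rose by 0.59, Mrpl33 by 0.58 and Mrpl13 by 0.55. Mrps21 ran from 71.8 to 112 FPKM in TMRM low and from 106 to 145 in TMRM high libraries (log2 difference 0.52 ± 0.09), overlapping only between 106 and 112. Mrpl23 rose by 0.36 and Mrpl42 by 0.38, and Mrpl52 stood at 0.25 without passing (limma adjusted p = 0.0534).

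Genes named in every comparison for a fixed role divided into those that rose and those that did not pass. Mrpl12, which forms the stalk that recruits translation factors and also binds the mitochondrial RNA polymerase, ran from 23.7 to 51.4 FPKM (median 38.6) in TMRM low and from 40.2 to 52.6 (median 45.7) in TMRM high libraries, a rise of 0.37 ± 0.12 (limma adjusted p = 0.0206). Mrps12, at the decoding centre, rose by 0.50, Mrpl3, near the peptidyl transferase centre, by 0.40, and Mrpl11, at the base of the stalk, by 0.40. Mrps2 (0.10 ± 0.12, limma adjusted p = 0.566) and Mrps18b (0.11 ± 0.07, limma adjusted p = 0.223) did not pass, with medians of 14.8 and 15.3 FPKM for Mrps2 and 34.5 and 35.7 for Mrps18b.

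By class, 18 of 28 large-subunit proteins with a bacterial homologue rose, as did 10 of 21 without one, 9 of 16 small-subunit proteins with a homologue and 1 of 10 without. The medians were 0.36, 0.26, 0.31 and 0.17 in that order, and differences between classes were not tested. The calls depended on scaling. With quantile normalization 16 of the 76 rose, and with each library scaled to the same total FPKM 13 rose, with none lower in either. Over all genes tested 13.3% and 9.35% rose in these settings. Those scalings moved the median of all genes from 0.06 to -0.002 and -0.11, and the share of all calls that were higher from 67.5% to 50.9% and 33.5%. Mrps18c, Mrpl20 and Mrps21 kept their calls under both, while Mrpl12, Mrpl3, Mrpl23, Mrpl33, Mrpl42 and Mrps36 lost theirs under both.

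Markers of other cells and states differed between the TMRM groups too. The summed cell cycle markers, 31 of 32 listed, ran from 1364 to 1598 FPKM in TMRM high and from 803 to 1074 in TMRM low libraries. The 10 border-associated macrophage markers ran from 236 to 339 against 70.8 to 167 FPKM, the 10 neuron markers from 1.9 to 4.39 against 8.99 to 51.0, and the 7 neutrophil markers from 0.18 to 785 against 651 to 2326, with none of the markers in these 4 lists at 0 throughout a group. TMRM low library 2 had the highest sum of 142 FPKM for endothelial and 57.2 for mural markers. Without this library 44 genes rose, where 22.2% of all genes rose. The part of the other markers in the result was not tested.

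**Figure D2:**
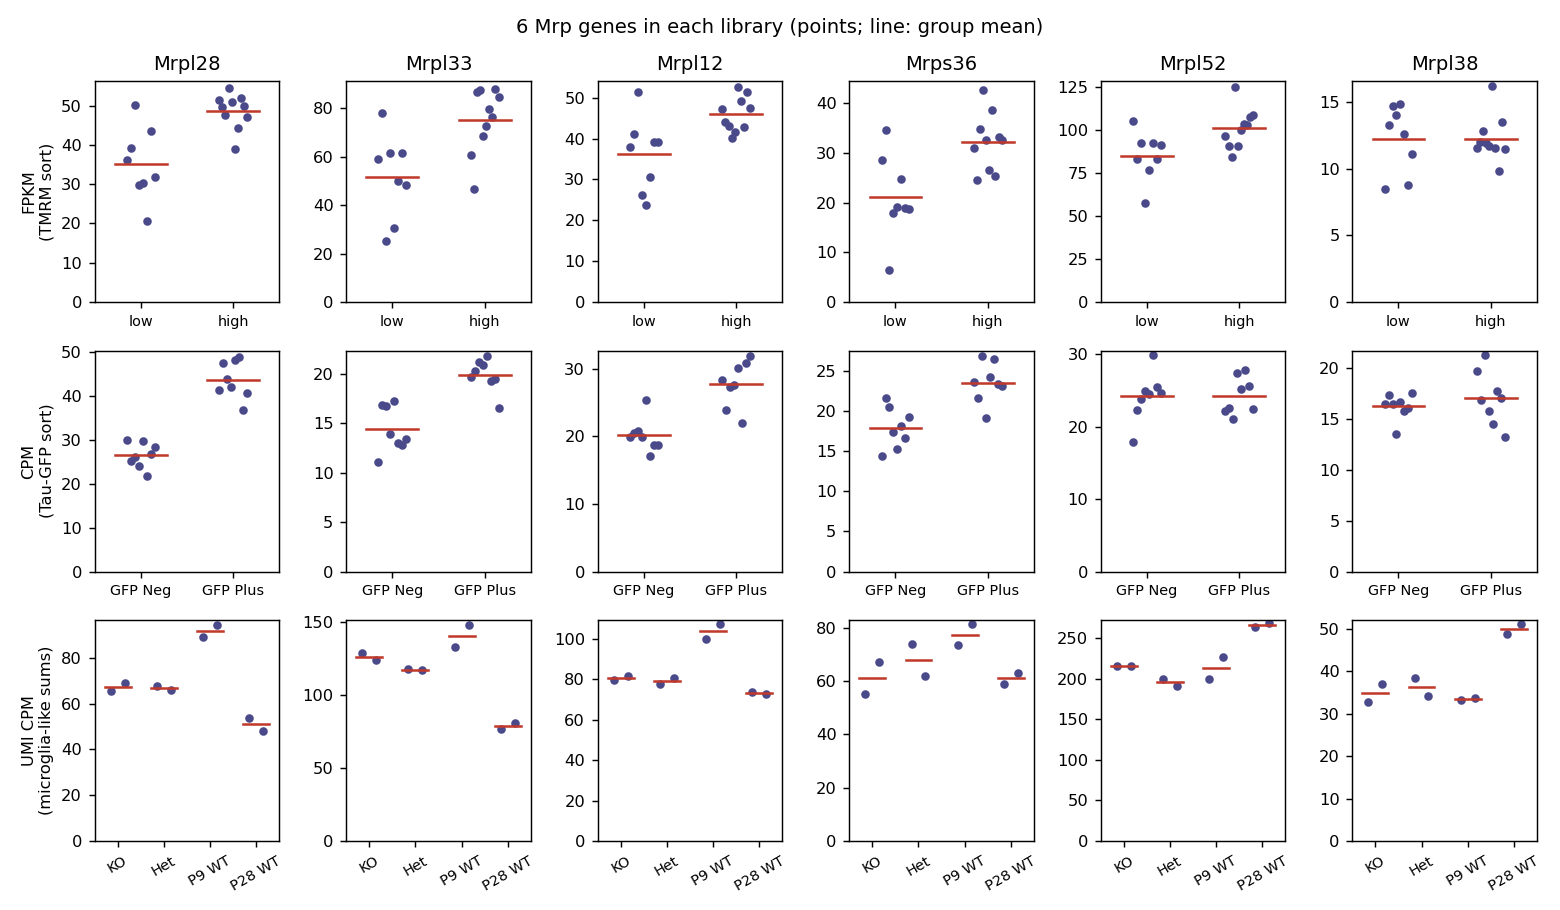
Levels of 6 genes by library, with points for libraries and lines for group means, in FPKM (TMRM sort, top), CPM (Tau-GFP sort, middle) and UMI CPM (microglia-like cells, bottom). Mrpl28 separates the Tau-GFP groups without overlap, at 21.7 to 30.01 against 36.7 to 48.9 CPM, while Mrpl52 and Mrpl38 overlap in both sorts and are highest in the P28 WT libraries.

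Around the ribosome, 66 other genes of mitochondrial translation and transcription were tested, and 8 rose and 4 fell in TMRM high cells, with a median of -0.03. The split turned with scaling, to 4 higher and 8 lower with quantile normalization (median -0.05) and to 3 higher and 17 lower with each library scaled to the same total FPKM (median -0.20). Among 7 ribosome subunits that carry other symbols 3 rose: Chchd1 by 0.84, Ict1 by 0.41 and Mrp63, the symbol of Mrpl57 here, by 0.36. Of 14 translation factors 3 rose, namely Lrpprc by 0.60 and Slirp by 0.58, which together stabilize mitochondrial messenger RNAs, and the elongation factor Gfm1 by 0.50. Of 24 assembly factors Mpv17l2 rose by 0.41, while the ribosomal RNA methyltransferase Rnmtl1 fell by 0.66, Mettl17 fell by 0.62 and Gtpbp5 fell by 0.28. Of 17 aminoacyl-tRNA synthetases Iars2 rose by 0.62 and Hars2 fell by 0.37, and none of 4 transcription genes passed. Of 79 cytosolic ribosomal proteins 32 rose and none fell, with a median of 0.23. With quantile normalization 5 of these rose and 1 fell, with a median of 0.01.

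Tau-GFP Plus microglia also had more of these RNAs than Tau-GFP Neg microglia. Of the 76, 26 rose and none fell (edgeR quasi-likelihood test, adjusted p under 0.05 over 12138 genes), where 20.7% of all genes rose and 16.9% fell. The median log2 fold change was 0.19, beside 0.01 over all genes, and 66 of 76 were above 0. The groups did not overlap for 4 genes, all higher in Plus cells, where 6.75% of all genes were higher and 4.52% lower without overlap. The 76 genes together took 0.171% to 0.190% of the expected counts in Neg libraries and 0.201% to 0.224% in Plus libraries, with no overlap.

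Mrpl28, a large-subunit protein with a bacterial homologue, ran from 21.7 to 30.01 CPM (median 26.4) in Neg and from 36.7 to 48.9 (median 42.9) in Plus libraries. The log2 difference was 0.72 ± 0.08 (n = 8 against 8; edgeR adjusted p = 2.99e-06). Mrpl42, a large-subunit protein without a bacterial homologue, ran from 24.96 to 33.3 against 37.7 to 45.7 CPM, a difference of 0.52 ± 0.07. The 2 other genes without overlap were Mrps18a, at 15.9 to 22.3 against 23.6 to 31.1 CPM (0.43 ± 0.09), and Mrpl27, at 15.4 to 21.1 against 21.3 to 26.7 CPM (0.41 ± 0.08).

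Mrpl12 ran from 17.1 to 25.4 CPM (median 19.9) in Neg and from 21.9 to 31.9 (median 27.9) in Plus libraries, a rise of 0.46 ± 0.10 (edgeR adjusted p = 0.00097). The overlap comes from Neg library 5, at 25.4 CPM where the other 7 reached at most 20.8. Mrpl41 rose by 0.48, Mrpl33 by 0.47, Mrpl54 by 0.45 and Mrps36 by 0.40. Mrpl11 rose by 0.29, at an edgeR adjusted p of 0.0333 that became 0.0725 without Plus library 3. Of the highest genes, Mrps33 rose by 0.30 and Mrpl17 by 0.22, while Mrpl43 stood at -0.13 ± 0.06 without passing. Mrps12 (0.28, edgeR adjusted p = 0.0513), Mrpl3 (0.18), Mrps18b (0.14) and Mrps2 (-0.02) did not pass.

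By class, 12 of 28, 7 of 21, 5 of 16 and 1 of 10 rose, in the order large subunit with and without and small subunit with and without a bacterial homologue. The medians were 0.22, 0.14, 0.27 and 0.14. Other markers differed strongly between these sorted groups. The 10 border-associated macrophage markers summed to 3329 to 8988 CPM in Plus and 583 to 895 in Neg libraries, the 10 neuron markers to 88.8 to 192 against 5.4 to 17.5, and the cell cycle markers to 3483 to 5060 against 2603 to 3774. The 12 microglial markers summed to 33539 to 50565 against 61195 to 76116 CPM. Plus library 3 stood out with 3236 CPM of endothelial and 977 CPM of monocyte markers. Without it 23 genes rose and none fell, where 18.7% of all genes rose and 15.3% fell. The part of the other markers in the result was not tested.

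Of the 66 genes around the ribosome 5 rose and 6 fell in Plus cells, with a median of -0.05. Among translation factors the ribosome recycling factor Mrrf rose by 0.75 and Slirp by 0.46, while Gfm2, an elongation factor G that acts in ribosome recycling, fell by 0.67 and the methionyl-tRNA formyltransferase Mtfmt fell by 0.58. The assembly factors Ngrn, Ddx28 and Mettl17 fell by 0.51, 0.43 and 0.40. Among synthetases Lars2 rose by 0.48 and Hars2 fell by 0.25, and among the subunits with other symbols Chchd1 rose by 0.29 and Mrp63 by 0.28. Of 79 cytosolic ribosomal proteins 15 rose and none fell, with a median of 0.10.

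**Figure D3:**
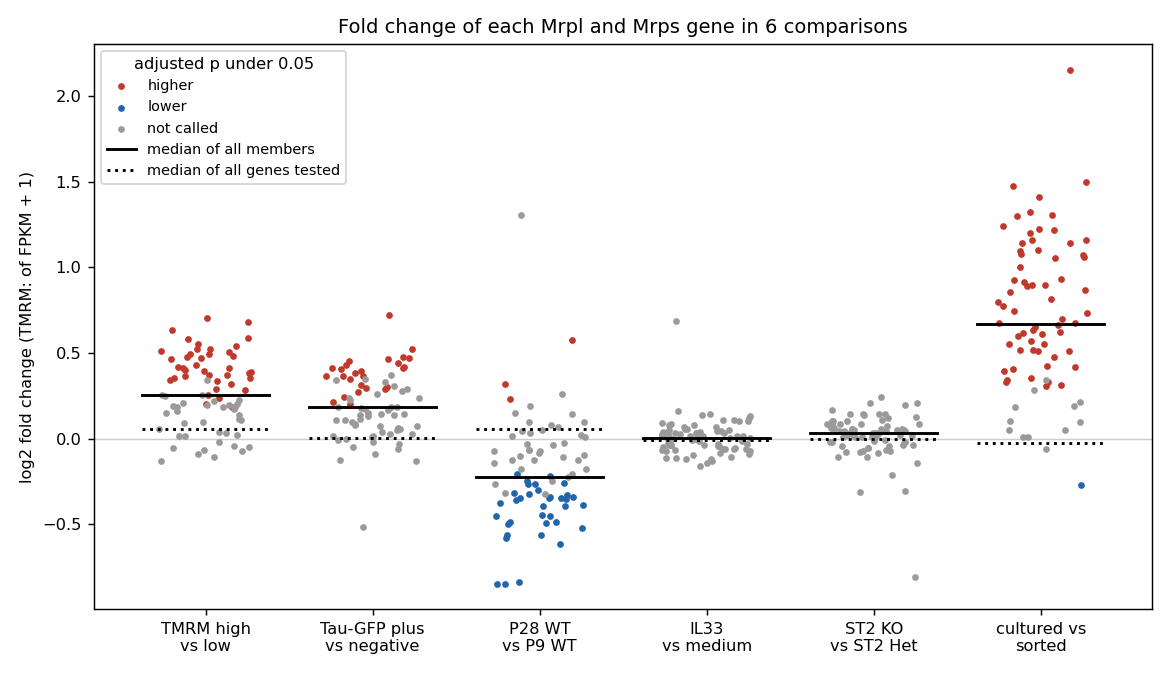
Log2 fold change of each gene (points) in 6 comparisons, red for higher and blue for lower at an adjusted p under 0.05 and grey for the rest, with solid lines at the median of these genes and dotted lines at the median of all genes tested. The solid line is at 0.26 for TMRM high, 0.19 for Tau-GFP Plus, -0.22 for P28 and 0.67 for cultured cells, and near 0 for IL33 and ST2 KO.

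The TMRM and Tau-GFP comparisons share no library. Of the 39 genes that rose with TMRM and the 26 that rose with Tau-GFP, 21 were the same, which is 53.8% of the first and 80.8% of the second list. Over all genes tested in both, the shared calls were 44.9% and 53.6% of the lists. With quantile normalization of the TMRM libraries 9 genes were shared, 56.2% and 34.6% of the lists beside 50.3% and 38.5% over all genes. With scaling to the same total FPKM 7 were shared, 53.8% and 26.9% beside 58.4% and 31.3%. Across the 76 genes the 2 log2 fold changes had a Pearson correlation of 0.41 and a Spearman correlation of 0.48, as a description over genes that share length and depth between the tables.

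Between P9 and P28, microglia-like cells of wild-type cortex had less of many of these RNAs at the later age. Of 77 genes 36 fell and 3 rose at P28 (edgeR quasi-likelihood test on UMIs summed per library, adjusted p under 0.05 over 11599 genes), where 26.1% of all genes fell and 27.5% rose. The median log2 fold change was -0.22, beside 0.06 over all genes. Groups of 2 libraries did not overlap for 51 genes lower and 9 higher at P28, against 36.5% and 41.6% of all genes. The 77 genes together took 0.494% of UMIs in each P9 WT library and 0.444% in each P28 WT library. At a depth of 1000 UMIs per cell the mean was 4.78 and 4.76 UMIs of these genes in P9 cells and 4.36 and 4.41 in P28 cells, after 2 and 0 P9 cells and 16 and 30 P28 cells with fewer UMIs were left out. Before thinning the means were 20.4 and 21.6, and 11.6 and 11.3.

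Mrpl30, a large-subunit protein with a bacterial homologue, stood at 122 and 121 CPM in the 2 P9 libraries and at 66.2 and 68.7 in the 2 P28 libraries. It fell by 0.85 ± 0.06 (n = 2 against 2; edgeR adjusted p = 1.22e-07). Mrpl28 stood at 89.1 and 94.1 against 53.7 and 48.1 CPM and fell by 0.85 ± 0.07, and Mrpl33 stood at 133 and 148 against 76.6 and 80.9 CPM and fell by 0.83 ± 0.07.

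Mrpl45, which lies at the exit of the tunnel and tethers the ribosome to the inner membrane, stood at 33.5 and 38.6 against 23.6 and 23.4 CPM and fell by 0.61. Mrps28 fell by 0.58 and Mrpl21 by 0.56. Mrpl12 stood at 99.9 and 108 against 73.6 and 73.0 CPM and fell by 0.50 ± 0.06, Mrpl23 fell by 0.45, Mrpl11 by 0.37, Mrps36 by 0.34 and Mrps21 by 0.33. Mrps36 lost its call when P9 library 2 or P28 library 1 was left out (edgeR adjusted p = 0.0858 and 0.115).

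The 3 genes that rose are all large-subunit proteins without a bacterial homologue. Mrpl38, of the central protuberance, stood at 33.3 and 33.6 CPM at P9 and at 48.7 and 51.1 at P28, a rise of 0.58 ± 0.09 (edgeR adjusted p = 9.82e-05). Mrpl52, the gene with the highest UMI level, stood at 199 and 227 against 264 and 268 CPM and rose by 0.32 ± 0.06. Mrpl43, at 110 and 108 against 122 and 134 CPM, rose by 0.23 ± 0.06, a call lost when P9 library 2 or P28 library 2 was left out (edgeR adjusted p = 0.0501 and 0.0865). Mrpl3 (-0.21), Mrps33 (-0.12), Mrps18b (-0.07), Mrps12 (0.10) and Mrps2 (0.15) did not pass.

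By class, 17 of 28 large-subunit proteins with a bacterial homologue fell, 7 of 22 without one fell and 3 rose, and 9 of 16 and 2 of 10 small-subunit proteins with and without one fell. The medians were -0.34, -0.10, -0.22 and -0.15. Summed cell cycle markers stood at 3721 to 3837 CPM in P9 and at 232 to 248 in P28 microglia-like cells, where 1 of the 31 was at 0. Without the clusters led by cell cycle genes, 35 genes fell and 2 rose, with a median of -0.18. Over all genes tested in that setting 23.2% fell, and 50.8% of all calls were higher, with a median of 0.05. The border-associated macrophage markers stood at 452 to 464 and 54.8 to 57.0 CPM, and the median share of mitochondrial transcripts per cell at 2.89% and 2.97% in P9 and 1.63% and 1.598% in P28 libraries. P28 cells were also shallower, with medians of 2296 and 2232 UMIs per cell beside 3829 and 4071, and most lay in other microglia-like clusters than the P9 cells. Clusters 0 and 2 held 1532 and 802 cells of P28 library 1 but 3 and 1 of P9 library 1, and cluster 1 held 5 and 1042. The part of these differences in the result was not tested.

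The ST2 libraries give a second set of P9 microglia, which carry another date in their titles and another genotype. P9 WT cells were above P9 ST2 Het cells for 32 of 77 genes and below for none, with a median of 0.21, where 9.68% and 7.94% of all genes were higher and lower. Date and genotype cannot be told apart in that difference. Against P9 ST2 Het in place of P9 WT, P28 WT cells had 18 genes higher and 14 lower, with a median of -0.01. Over all genes tested 24.5% were higher and 26.3% lower, with a median of -0.007. The P28 WT and P9 WT libraries carry the same date in their titles and the same genotype. Against P9 ST2 Het, age, date and genotype differ together and cannot be told apart. The direction of the list as a whole at P28 was thus seen against the 2 P9 WT libraries only. Among the named genes, those that fell against both were Mrpl33 (by 0.58 against Het, at 118 and 117 CPM in the Het libraries), Mrpl30 (by 0.53, at 95.4 and 98.8), Mrps28 (by 0.49), Mrpl45 (by 0.41), Mrpl28 (by 0.39, at 67.8 and 65.9) and Mrpl21 (by 0.28). Mrpl38 (0.46), Mrpl52 (0.44) and Mrpl43 (0.32) were higher than in either P9 group. Against Het, Mrpl12 (-0.11), Mrpl11 (-0.08), Mrpl23 (-0.14), Mrps21 (-0.004) and Mrps36 (-0.15) did not pass, Mrps12 (0.53) and Mrps2 (0.52) rose, and Mrps33 rose by 0.18. Both comparisons use the same P28 libraries.

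**Figure D4:**
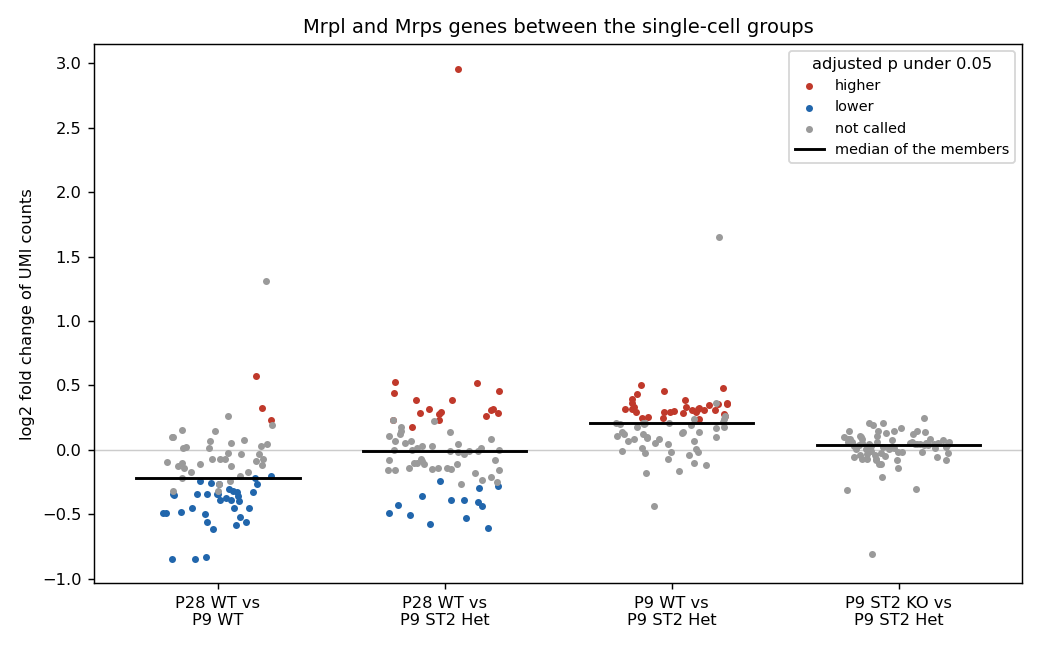
Log2 fold change of UMI counts of each of 77 genes (points) in 4 comparisons of the single-cell groups, red for higher and blue for lower at an adjusted p under 0.05, with lines at the medians. The median is -0.22 against P9 WT and -0.01 against P9 ST2 Het, and the highest point of the first 3 comparisons is Mrpl53, which had at most 1.86 UMI CPM in any library.

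Of 65 genes around the ribosome 12 rose and 9 fell at P28, with a median of -0.02. Translation factors moved in both directions, with Lrpprc at 0.69, the initiation factor Mtif2 at 0.54, Slirp at -0.36 and the elongation factor Tufm at -0.46 on the log2 scale. Among assembly factors Mtg2 rose by 0.76, Ngrn by 0.60 and Dhx30 by 0.43, and Mpv17l2 fell by 0.41. Ict1 fell by 0.48 and Chchd1 by 0.28, and the mitochondrial transcription factor Tfb2m rose by 0.57. Of 81 cytosolic ribosomal proteins 68 fell and 1 rose, with a median of -0.80. Against P9 ST2 Het 76 of these fell and 1 rose, with a median of -0.67.

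Between P9 and P28 on one side and the TMRM or Tau-GFP groups on the other, no library is shared. Of the 36 genes that fell at P28, 35 were tested in the bulk tables. Of these, 24 rose in TMRM high cells (68.6% of the 35 and 61.5% of the 39), where over all genes tested in both the shared calls were 42.5% and 56.9%. In Tau-GFP Plus cells 18 of the 35 rose (51.4% of the 35 and 69.2% of the 26, beside 34.5% and 55.2% over all genes). Against P9 ST2 Het, 7 of the 14 genes lower at P28 rose in TMRM high cells. Over all genes tested in both, 38.1% of those lower at P28 rose in TMRM high cells. The 7 are 17.9% of the 39, beside 49.3% over all genes. In Tau-GFP Plus cells 6 of the 14 rose (42.9%, beside 30.6% over all genes), which is 23.1% of the 26 beside 47.5%. With P9 WT, 9 genes were shared with TMRM after quantile normalization. They are 56.2% of the TMRM list and 25.7% of the 35, beside 57.2% and 27.4% over all genes. After scaling to the same total FPKM 7 were shared, 53.8% of the TMRM list beside 62.2% over all genes. The 7 were also a smaller share of the 35 than the 22.6% over all genes. Under both scalings the shared calls were thus no more frequent than over all genes. The log2 fold changes had Pearson correlations across 76 genes of -0.39 and -0.46, as a description. The 14 genes called in all 3 comparisons were Mrpl11, Mrpl12, Mrpl13, Mrpl17, Mrpl18, Mrpl23, Mrpl28, Mrpl30, Mrpl33, Mrpl42, Mrpl54, Mrps14, Mrps21 and Mrps36, and this set depended on the settings. Of the 14, 5 kept the TMRM call with quantile normalization, 3 with scaling to the same total FPKM and 6 with a replicate block, 12 kept the Tau-GFP call without Plus library 3, and 5 kept the P28 call against P9 ST2 Het. Mrpl54 was the 1 gene that kept its call in all 5 of these. At least 1 of the 3 comparisons called 52 genes. The 9 genes called in none of the 6 comparisons of the design were Mrpl9, Mrpl16, Mrpl24, Mrpl47, Mrps2, Mrps5, Mrps11, Mrps25 and Mrps31. For the counts of 14, 52 and 9 genes no share over all genes is given here, so they serve as lists only.

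None of the 76 genes passed the test after 3 h of IL33 in cultured microglia (edgeR quasi-likelihood test, adjusted p under 0.05 over 10815 genes), where 4.22% of all genes rose and 3.54% fell. The median log2 fold change was 0.01, beside -0.01 over all genes. Of the 76, 4 had an unadjusted p under 0.05 (edgeR), about as many as that threshold passes when nothing changes. DESeq2 called 0 as well. Mrps18b ran from 36.3 to 39.8 CPM (median 38.9) in Medium and from 36.6 to 46.2 (median 44.9) in IL33 libraries, a difference of 0.16 ± 0.06 (n = 7 against 7; edgeR adjusted p = 0.119). The groups overlapped, as they did for each of the 76 genes, where 2.15% of all genes were higher and 1.4% lower without overlap. Mrps30 ran from 6.26 to 23.03 against 7.82 to 29.4 CPM (0.69 ± 0.28, edgeR adjusted p = 0.166), Mrpl45 differed by 0.14 and Mrpl28 by -0.13. Mrpl12 had medians of 35.5 and 36.7 CPM (0.07 ± 0.06). The other genes of fixed role lay between -0.07 for Mrps12 and -0.004 for Mrpl11. The genes together took 0.215% ± 0.008 (SD, n = 7) of the counts in Medium and 0.220% ± 0.004 in IL33 libraries. Of the 66 genes around the ribosome only the synthetase Lars2 passed, and it fell by 0.25. Of 79 cytosolic ribosomal proteins none passed, with a median of -0.07.

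None of the 77 genes passed the test between ST2 KO and ST2 Het in P9 microglia-like cells (edgeR quasi-likelihood test over 11599 genes), where 0.302% of all genes were higher and 0.293% lower in ST2 KO than in ST2 Het. The median log2 difference was 0.04, beside -0.001 over all genes. Of the 77, 4 had an unadjusted p under 0.05 (edgeR), about as many as that threshold passes when nothing changes. DESeq2 called 0. The smallest p was that of Mrpl24, at 81.3 and 81.6 CPM in Het and 72.0 and 68.6 in KO libraries (-0.21 ± 0.07, edgeR adjusted p = 0.295). Mrps10 stood at 52.4 and 49.7 against 60.5 and 60.4 CPM (0.24 ± 0.09), Mrpl44 differed by -0.31 and Mrpl42 by 0.21. Mrpl12 stood at 78.0 and 80.5 against 79.6 and 81.6 CPM (0.02 ± 0.07). Without overlap, 18 genes were higher and 3 lower in KO, against 18.7% and 19% of all genes. None of the 65 genes around the ribosome passed.

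**Figure D5:**
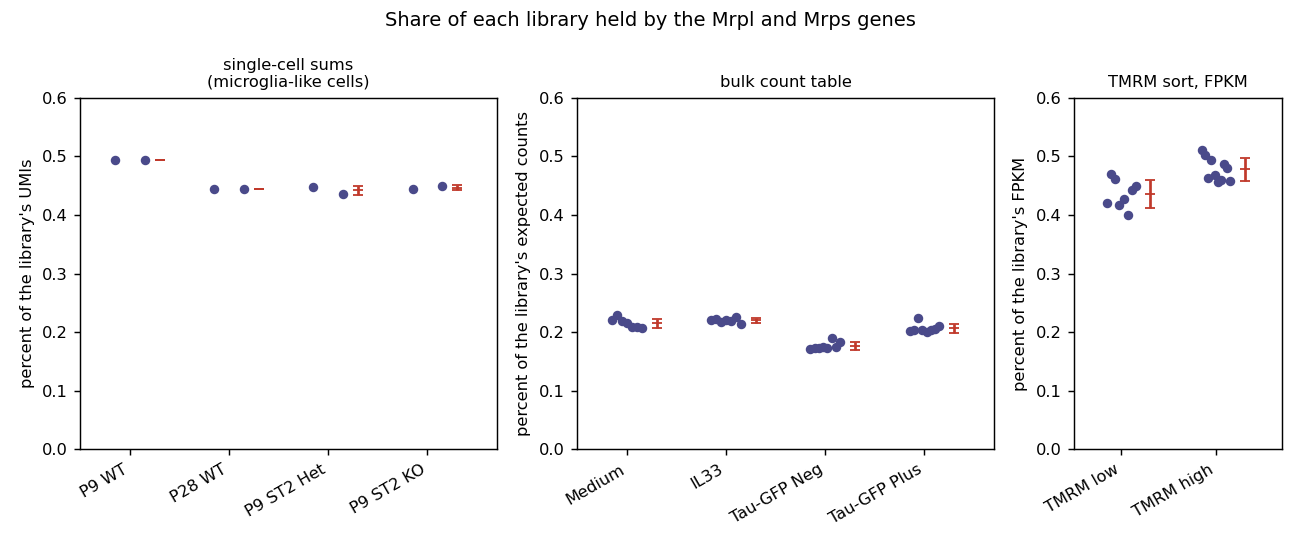
Share of each library held by the mitochondrial ribosomal protein genes, in percent of UMIs, of expected counts and of FPKM, with points for libraries and red marks for the mean and 1 SD of each group. Shares compare only within a panel. Tau-GFP Plus libraries (0.201% to 0.224%) lie above Tau-GFP Neg libraries (0.171% to 0.190%), and P9 WT libraries (0.494%) above the other single-cell groups. TMRM high (0.457% to 0.511%) and TMRM low libraries (0.400% to 0.471%) overlap.

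The cultured Medium libraries and the sorted Tau-GFP Neg libraries stand in 1 count table, and culture, strain, age and preparation differ together between them and cannot be told apart. Of 76 genes 63 were higher in culture and 1 lower (edgeR quasi-likelihood test over 11562 genes), where 38.2% of all genes were higher and 39.8% lower. The median log2 difference was 0.67, beside -0.02 over all genes. The groups did not overlap for 50 genes, all higher in culture, against 26.5% of all genes higher and 26.2% lower. At least 2-fold higher were 22 genes, a count given without its share over all genes. As a share of all counts the genes took 0.207% to 0.228% in Medium and 0.171% to 0.190% in Tau-GFP Neg libraries. The scaling factors of edgeR ran from 0.846 to 0.871 in Medium and from 1.11 to 1.17 in Tau-GFP Neg libraries. Cell cycle markers summed to 732 to 1088 CPM in Medium and 2603 to 3774 in Tau-GFP Neg libraries, border-associated macrophage markers to 1468 to 2072 against 583 to 895, and 6 of 7 listed monocyte markers to 263 to 479 against 12.4 to 143. Their part in the result was not tested.

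Mrpl14, a large-subunit protein with a bacterial homologue, ran from 23.8 to 35.8 CPM in Medium and from 7.46 to 14.2 in Tau-GFP Neg libraries, a difference of 1.498 ± 0.12 (n = 7 against 8; edgeR adjusted p = 1.04e-09). Mrpl33 was higher by 1.48, at 28.0 to 41.2 against 9.49 to 14.96 CPM, Mrps6 by 1.41, Mrps23 by 1.33 and Mrps18a by 1.31. Mrps30 had the largest difference, 2.15 ± 0.39, but its groups overlapped, at 7.28 to 26.6 against 0.924 to 10.1 CPM. Mrpl20 was higher by 1.30, Mrpl12 by 1.22, Mrps36 by 1.20, Mrps12 by 1.16 and Mrps18b by 1.06. Mrps2 did not pass (0.01 ± 0.08), at 41.2 ± 3.5 and 40.7 ± 5.2 CPM (SD), and Mrpl48 was the gene lower in culture (-0.27 ± 0.09). By class 23 of 28, 18 of 21, 13 of 16 and 8 of 10 were higher, in the order used above.

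Of the 66 genes around the ribosome 28 were higher and 15 lower in culture, with a median of 0.10. Mrp63 (1.16), Aurkaip1 (1.05), Gadd45gip1 (0.87) and Chchd1 (0.82), subunits with other symbols, were higher, as were Slirp (1.26), Tufm (0.74) and the assembly factor Noa1 (1.48), while Gfm2 was lower (-2.22). Of 79 cytosolic ribosomal proteins 11 were higher and 36 lower, with a median of -0.10. The comparison shares the Medium libraries with the IL33 comparison and the Neg libraries with the Tau-GFP comparison.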

How the data were processed

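Bulk values are expected counts that the authors made with RSEM and Bowtie2, TMRM values are FPKM that the authors made with TopHat2 2.0.10 and Cufflinks 2.0.2, and single-cell values are UMI counts deposited from Cell Ranger, all on mm10, per the submitters' processing notes, which tie these tools to data types only in part. The bulk table has 35 count columns, of which 30 matched a sample and 5 were not used. Expected counts were rounded (25.3% were not whole), and 27 symbols that a spreadsheet had turned into dates, with 0.134% of the counts, were left out of the fits. FPKM carry no depth. The deposited table of TMRM high library 8 gave no value for 500 symbols, none of them a gene described here.

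Counts were tested with edgeR 4.0.16 (quasi-likelihood, TMM scaling, filterByExpr), and FPKM with limma 3.58.1 on log2(FPKM + 1) keeping genes whose mean FPKM was 1 or more. Cells with at least 500 genes and at most 10% mitochondrial UMIs were clustered with scanpy 1.11.5 (2000 variable genes, 30 components, 15 neighbours, resolution 1), without a doublet caller, and UMIs of microglia-like cells were summed per library, with all 8 libraries in one fit. P-values were adjusted by Benjamini-Hochberg over all genes tested. Alternatives were DESeq2 1.42.0 and no low-count filter for counts, other scalings, another pseudocount and no filter for FPKM, and a replicate block. Each library was left out in turn in the P28 and ST2 comparisons; otherwise TMRM high 8, TMRM low 2 and Tau-GFP Plus 3 were left out, and none in the IL33 and culture comparisons. Genes were named by rule: up to 6 with the largest change in each direction among those passing, the 4 of highest mean level, 7 of fixed role, the 4 of smallest p where none passed, and up to 4 of smallest p from each list of other genes; Mrpl40 and Mrpl53, and genes named for values without overlap, were chosen after their values were seen. The members and lists were chosen with earlier results of these data known. The scripts were tested on simulated data.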

Additional observations from a re-analysis of the deposited data

Results flagged for a closer look

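In 5 of 96 groups of 4 to 10 libraries, 1 library stood apart from the rest of its group; chance gives about 1 in 20. Tau-GFP Plus library 3 held the highest share of these genes, 0.224% beside 0.201% to 0.210% in the others, and is the library with the most endothelial and monocyte marker RNA. Mrpl12 stood at 25.4 CPM in Tau-GFP Neg library 5, above 17.1 to 20.8 in the rest. In IL33 library 1 Mrpl3 was highest, at 40.7 CPM beside 29.7 to 34.1, and Mrps14 lowest, at 51.7 beside 59.4 to 64.7. Mrpl3 was also highest in Medium library 3, at 41.9 CPM beside 31.2 to 35.4.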

How the results depend on the processing

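The count of genes higher in TMRM high cells was 39, beside 20.4% of all genes. It was 16 with quantile normalization (13.3% of all genes) and 20 with a replicate block (14.1%). With FPKM scaled to the same total in each library it was 13 (9.35%), an alternative chosen after seeing the data. So were leaving out TMRM low library 2 (44, beside 22.2%) and Tau-GFP Plus library 3 (23 higher in Plus cells, beside 18.7%). The comparison of P28 with P9 ST2 Het was also chosen after seeing the data. Against Het, 18 genes were higher and 14 lower at P28, and Mrps33 turned from -0.12 to 0.177 (edgeR adjusted p = 0.034). With each library left out in turn, P28 had 2 to 3 genes higher, 30 to 35 lower and a median of -0.254 to -0.167. Over all genes tested in these fits 21.1% to 22.3% were higher and 20.8% to 22.5% lower. With a replicate block, 1 gene, Mrps30, was higher with IL33 (0.69, edgeR adjusted p = 0.0219), beside 4.35% of all genes. Same-numbered libraries correlated from -0.06 to 0.35 there, and the labels do not name the numbers as pairs. They correlated from -0.16 to 0.43 in the Tau-GFP comparison and at 0.14 for both numbers in the ST2 comparison. With a replicate block 25 genes rose in Tau-GFP Plus cells, beside 20.1% of all genes, and 0 passed between ST2 KO and ST2 Het. The causes were not tested. Values of single genes were on the same side of the threshold and in the same direction in 588 cases, lost the call in 32, gained it in 5 and moved beyond the spread in 3. These cases cover mainly the named genes and not the whole list. Of the 588, 44 and 144 come from the IL33 and ST2 comparisons, where no gene was called at first. Of the 32 lost calls, 19 were in the TMRM comparison. With 2 libraries a group, the single-cell comparisons rest on few samples, and FPKM give no depth.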

Other observations

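Dividing microglia carried somewhat more of these RNAs. In each of the 6 P9 libraries, microglia-like cells of the clusters led by cell cycle genes had a higher summed level than the remaining microglia-like cells, with ratios of 1.138, 1.11, 1.124, 1.079, 1.095 and 1.083 (5376 against 4722 UMI CPM in P9 WT library 1). Over single genes the median ratio was 1.09, beside 1.002 over 10345 genes with at least 100 UMIs. In all 6 libraries 17 of these genes were higher and 1 was lower, where 19.9% and 17% of all genes were. Mrpl51 had the largest ratio, 1.68, followed by Mrpl18 (1.61), Mrpl33 (1.44), Mrpl28 (1.41) and Mrps26 (1.38), and Mrpl45 the smallest (0.848). The clusters were formed from the same cells, so these are descriptions with no test. Cells like border-associated macrophages had 4976 and 5021 UMI CPM of these genes in P9 WT and 3731 and 4044 in P28 WT libraries, but also 3734 and 4099 in P9 ST2 KO and 4671 and 4467 in P9 ST2 Het libraries. Microglia-like cells had 4943 and 4946 in P9 WT, 4441 and 4441 in P28 WT, 4474 and 4366 in P9 ST2 Het and 4439 and 4496 in P9 ST2 KO libraries.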
